A study of Mus musculus with 24 samples.

Results

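Major urinary protein (Mup) genes were examined in hepatocyte transcriptomes of aged mice on normal or high fat diet with and without rapamycin. The 10 genes described are Mup1, Mup2, Mup3, Mup7, Mup10, Mup12, Mup15, Mup17, Mup20 and Mup21, out of 55421 genes in the deposited tables. These tables hold 22 Mup genes in all, and a further 27 Mup pseudogenes. The 10 genes were selected on measured values, the differences between the 3 groups seen in an earlier look at these same counts. Their differences between groups are therefore given as a description with standard errors (SE) and with no test, and the summed counts of the family stand beside single genes.

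All mice were C57BL/6J and received vehicle or rapamycin, an inhibitor of the kinase mTOR, from 4 months of age. The ND + veh group (8 animals) received vehicle and stayed on normal diet. The HFD + veh group (7 animals) received vehicle and spent 9 weeks from 18 months of age on a high fat diet, in which fat supplied 60% of the calories. The HFD + eRapa group (9 animals) received encapsulated rapamycin (eRapa) at 42 ppm, first on normal diet and then on the same fat-rich diet. No group on normal diet with eRapa was analysed here, so an effect of the drug without the fat-rich diet cannot be told apart from one that needs it. Hepatocytes were isolated by a perfusion in 2 steps, and polyA RNA was sequenced from libraries of the Watchmaker mRNA kit. All 24 libraries carry the same batch label. Whether each replicate is a separate animal rests on the replicate labels alone, and the SEs measure the spread between these libraries.

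Mup genes encode small secreted lipocalins, proteins that bind volatile molecules in a barrel-shaped pocket. Mouse liver makes them in large amounts, and they pass through blood and kidney into urine, where they carry and release scent signals. The genes form a dense cluster of recent copies, with nearly identical central genes flanked by more divergent peripheral genes. Their expression in liver is known to be higher in males and to depend on pulses of growth hormone (GH), which act through the transcription factor STAT5B.

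The library totals ran from 17.7 to 25.9 M counts (M, units of 1000000). The hepatocyte label was checked against 10 markers, all of which had counts in every library, with a summed level of 76836 to 175948 CPM (counts per 1000000 counts). Markers of other cell types were present too. The summed CPM of 8 macrophage markers ran from 40.4 to 1096 in ND + veh, from 141 to 4722 in HFD + veh and from 13.1 to 819 in HFD + eRapa, with no marker at 0 in any library. The other ranges, in the same order of groups, were 0.789 to 32.3, 3.48 to 532 and 0.714 to 30.1 CPM for 8 lymphocyte markers and 61.7 to 343, 79.0 to 683 and 51.5 to 270.3 CPM for 6 endothelial markers. They were 29.1 to 221, 29.1 to 440.4 and 19.2 to 82.9 CPM for 6 stellate cell markers, 4.81 to 26.3, 13.7 to 424 and 11.7 to 57.0 CPM for 5 cholangiocyte markers, and 0 to 2.71, 0.789 to 31.7 and 0 to 7.57 CPM for 5 neutrophil markers. At least 1 library had 0 counts for 7 of the 8 lymphocyte, all 5 neutrophil and 3 of the 5 cholangiocyte markers. In bulk libraries such as these, fewer cells of a type and less RNA per cell cannot be told apart.

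The 22 Mup genes lie within 2.19 megabases of chromosome 4 (GRCm38, 59956804 to 62150863), and 21 of them are on the minus strand. All 10 members are protein coding and on that strand. In the order of the chromosome, Mup7 (ENSMUSG00000073842.10) lies at 60066469 to 60070475, Mup2 (ENSMUSG00000078688.11) at 60135932 to 60154289 and Mup1 (ENSMUSG00000078683.9) at 60498012 to 60501960. Mup10 (ENSMUSG00000078680.3) lies at 60578260 to 60582199, Mup12 (ENSMUSG00000094793.1) at 60737383 to 60741326, Mup15 (ENSMUSG00000096674.1) at 61435790 to 61439743 and Mup17 (ENSMUSG00000096688.1) at 61591929 to 61595871. At the far end lie Mup20 (ENSMUSG00000078672.2) at 62050234 to 62054158, Mup3 (ENSMUSG00000066154.11) at 62083476 to 62087342 and Mup21 (ENSMUSG00000066153.2) at 62147932 to 62150863. The first 7 of these are termed central and the last 3 peripheral here, a split used after their values had been seen.

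The coding sequences of the 7 central members were 98.5% to 99.6% identical in 21 pairs, with a median of 98.9%. A central and a peripheral member shared 84.1% to 91.5%, and the 3 peripheral members shared 88.5% to 96.3% with each other, the highest value being that of Mup3 and Mup21. Among 540 aligned positions, 14 varied among the central members and 112 among all 10, and no 2 members had the same coding sequence. A stretch of 60 coding bases near the start shows how little separates the copies. Capitals mark bases that differ from the most common base among the 10 genes, and the sequences come from the Gencode M21 transcripts of GRCm38.
Mup2: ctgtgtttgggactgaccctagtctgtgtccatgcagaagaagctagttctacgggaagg
Mup10: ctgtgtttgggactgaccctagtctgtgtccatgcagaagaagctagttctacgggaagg
Mup15: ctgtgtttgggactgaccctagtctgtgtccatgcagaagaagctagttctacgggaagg
Mup17: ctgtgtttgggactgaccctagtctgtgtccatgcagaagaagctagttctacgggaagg
Mup12: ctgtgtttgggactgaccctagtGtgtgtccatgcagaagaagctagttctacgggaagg
Mup1: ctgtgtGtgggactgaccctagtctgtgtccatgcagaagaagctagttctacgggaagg
Mup7: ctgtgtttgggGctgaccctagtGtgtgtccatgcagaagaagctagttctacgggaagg
Mup20: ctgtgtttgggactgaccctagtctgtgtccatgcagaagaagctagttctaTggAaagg
Mup3: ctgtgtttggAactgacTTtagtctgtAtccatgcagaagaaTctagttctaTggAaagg
Mup21: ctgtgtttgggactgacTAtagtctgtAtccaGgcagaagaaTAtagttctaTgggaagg
Mup2, Mup10, Mup15 and Mup17 were the same letter for letter in this stretch, so a read that falls within it cannot be given to one of them. From the most common bases, Mup1 and Mup12 each differed at 1, Mup7 and Mup20 each at 2, and Mup3 and Mup21 each at 7.

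The share of each transcript that is its own was measured as the percentage of its 100-base stretches found in no other annotated gene. Mup3 held 97.1% and Mup21 95.5%, followed by Mup20 with 61.2% and Mup17 with 40.6%. The share was 22.5% for Mup12, 14.6% for Mup10, 12.9% for Mup7 and 12.8% for Mup1, and 2.66% for both Mup2 and Mup15. The counts and the FPKM values (fragments per kilobase of transcript per 1000000 mapped fragments) of the same libraries differed by gene, and not in the order of this share. The median FPKM over the 24 libraries was 1.09 times the counts per kilobase and per 1000000 for Mup21 and 1.29 times for Mup3. It was 1.47 times for Mup17, 1.83 times for Mup7, 1.85 times for Mup20, 3.65 times for Mup15, 4.00 times for Mup12, 5.81 times for Mup1 and 7.83 times for Mup2. For Mup10 the ratio was 301, with at most 27 counts in any library against a lowest FPKM of 18.6. Levels of single central members thus depend on the table used, most of all for Mup10, and those of Mup3 and Mup21 depended on it least.

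**Figure D1:**
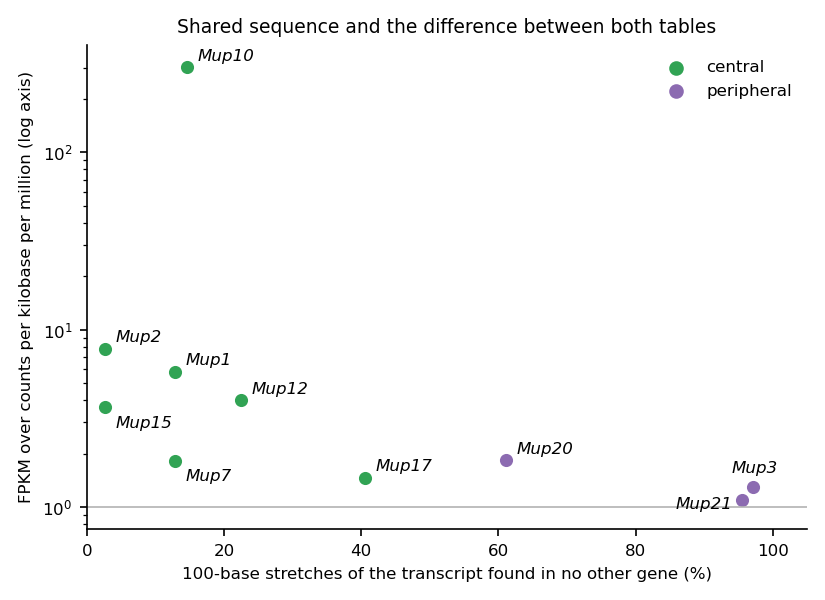
Each point is 1 of the 10 Mup genes. The horizontal axis is the percentage of 100-base stretches of its transcript found in no other gene, and the vertical axis (log) is the median FPKM over the median counts per kilobase and per 1000000 in 24 libraries. The peripheral genes lie between 1.09 and 1.85, and Mup10 stands far above all others at 301.

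Per length, Mup20 and Mup3 were far above the other members in all 3 groups. In ND + veh the FPKM of Mup20 ran from 5397 to 25836 with a median of 8055 and that of Mup3 from 907 to 8553 with a median of 7331, so the order of the pair was not clear. Mup21 came next at 123 to 419 with a median of 327, separate from Mup3 above it and from Mup10 below it. Mup10 followed with a median FPKM of 61.0 and Mup2 with 20.5, and then Mup15 with 11.6, Mup7 with 8.59, Mup1 with 5.40, Mup17 with 3.84 and Mup12 with 2.83, all of which overlapped with their neighbours in this order. In HFD + veh the order was the same apart from Mup7 (median FPKM 4.88) standing above Mup15 (3.89). In HFD + eRapa, Mup3 (median FPKM 9974) and Mup20 (8484) still led with overlapping ranges. Below that gap Mup7 had a median FPKM of 499, Mup21 of 432 and Mup15 of 234, and their ranges overlapped, so Mup21 was no longer separate from the central members.

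Mup20 encodes darcin, a male scent protein that attracts females. Its counts ran from 2675 to 12256 CPM in ND + veh with a median of 3901, from 1259 to 6254 CPM in HFD + veh with a median of 4201, and from 2654 to 6826 CPM in HFD + eRapa with a median of 4345. The 3 groups overlapped almost completely. The log2 fold change was -0.46 (SE 0.34) for HFD + veh against ND + veh, 0.32 (SE 0.33) for HFD + eRapa against HFD + veh and -0.14 (SE 0.32) for HFD + eRapa against ND + veh. Of the 10 members it had the smallest difference in both comparisons with HFD + eRapa, and its sign against ND + veh turned when single libraries were left out (-0.27 to 0.22).

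Mup3, its neighbour on the chromosome, had 699 to 6628 CPM in ND + veh (median 5555), 2415 to 5156 CPM in HFD + veh (median 3792) and 5149 to 11184 CPM in HFD + eRapa (median 7613). The lowest HFD + eRapa animal lay just under the highest HFD + veh animal, and 8 of the 9 HFD + eRapa animals were above every HFD + veh animal. Log2 fold changes of Mup3 were -0.43 (SE 0.34), 1.16 (SE 0.34) and 0.73 (SE 0.32) in the same order of comparisons.

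Mup21 had 73.9 to 251 CPM in ND + veh (median 189.6), 63.5 to 181 CPM in HFD + veh (median 89.8) and 186 to 584 CPM in HFD + eRapa (median 244). All 9 HFD + eRapa animals were above all HFD + veh animals, and all 7 HFD + veh animals were below the ND + veh median. Its fitted difference was -0.96 (SE 0.33), 1.93 (SE 0.34) and 0.97 (SE 0.31) on the log2 scale. Of the Mup21 transcript, 95.5% of 100-base stretches but 80.7% of 50-base stretches were found in no other gene. Its coding sequence was 96.3% identical to that of Mup3, which had far more counts. The read length is not given in the sources used here, so how many reads both genes could share was not tested.

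The central members were low in both groups on vehicle and far higher in part of the HFD + eRapa animals. Mup7 had 1.74 to 71.6 CPM in ND + veh (median 4.08), 0.416 to 10.3 CPM in HFD + veh (median 1.53) and 34.2 to 1257 CPM in HFD + eRapa (median 282). All 9 HFD + eRapa animals exceeded every HFD + veh animal, and 7 of 9 exceeded every ND + veh animal. The log2 fold change was -3.27 (SE 1.08) for HFD + veh against ND + veh, 7.65 (SE 1.29) for HFD + eRapa against HFD + veh and 4.38 (SE 1.03) for HFD + eRapa against ND + veh. On the fold scale the second value is 200.3. Without HFD + veh replicate 7, the first was -4.33.

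Mup15 had 0.704 to 15.3 CPM in ND + veh (median 2.80), 0.0914 to 2.09 CPM in HFD + veh (median 0.655) and 20.7 to 554 CPM in HFD + eRapa (median 91.0). The HFD + eRapa animals were separate from both other groups. Its log2 fold change of 8.21 (SE 0.96) in HFD + eRapa against HFD + veh was the highest of the 10 members, beside -2.66 (SE 0.81) for HFD + veh against ND + veh and 5.55 (SE 0.78) for HFD + eRapa against ND + veh.

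Mup17, the central member with the largest share of its own sequence, had 0.453 to 4.55 CPM in ND + veh (median 1.69), 0.137 to 3.79 CPM in HFD + veh (median 1.07) and 16.5 to 439 CPM in HFD + eRapa (median 122). Its HFD + eRapa animals were separate from both other groups as well. Its log2 fold change was -0.67 (SE 0.69), 7.23 (SE 0.81) and 6.56 (SE 0.73) in the same order of comparisons.

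Mup1 and Mup12 lay around or below 1 CPM in most animals on vehicle. Mup1 had 0.0814 to 1.41 CPM in ND + veh (median 0.251), 0.403 to 2.71 CPM in HFD + veh (median 0.509) and 3.61 to 30.98 CPM in HFD + eRapa (median 9.71), with no overlap between HFD + eRapa and either other group. It was the only one of the 10 members whose fitted difference between HFD + veh and ND + veh was positive, at 1.41 (SE 0.67) on the log2 scale. That sign depended on the table, since the difference of mean log2(FPKM + 1) was -0.86. Against both groups on vehicle, the log2 fold change of Mup1 in HFD + eRapa was 3.59 (SE 0.67, HFD + veh) and 5.01 (SE 0.70, ND + veh).

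Mup12 had 0.0511 to 1.63 CPM in ND + veh (median 0.426), 0.101 to 1.41 CPM in HFD + veh (median 0.320) and 1.68 to 20.7 CPM in HFD + eRapa (median 6.25). Every HFD + eRapa animal was above all animals of the other groups. On the log2 scale the differences were -0.02 (SE 0.65), 4.09 (SE 0.67) and 4.07 (SE 0.64), and the first of them ran from -0.57 to 0.41 when single libraries were left out.

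Mup2 had 0.665 to 8.44 CPM in ND + veh (median 2.33), 0.959 to 6.03 CPM in HFD + veh (median 2.77) and 3.76 to 13.9 CPM in HFD + eRapa (median 9.42). Of the 9 HFD + eRapa animals, 7 were above all HFD + veh animals and 6 above all ND + veh animals. Differences on the log2 scale were -0.03 (SE 0.44), 1.58 (SE 0.44) and 1.54 (SE 0.42). The first ran from -0.23 to 0.33 when single libraries were left out, and the second was the lowest of the central members.

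Mup10 was counted least, with 0.0459 to 1.04 CPM in ND + veh (median 0.201), 0 to 0.232 CPM in HFD + veh (median 0.0908) and 0.254 to 1.12 CPM in HFD + eRapa (median 0.555). It had 0 counts in HFD + veh replicates 4 and 5, which allows up to 0.139 and 0.137 CPM (3 counts, counting error only). Its log2 fold change was -1.60 (SE 0.62), 2.44 (SE 0.60) and 0.84 (SE 0.51). The groups on the fat-rich diet did not overlap, but only narrowly. The lowest HFD + eRapa library had 6 counts (0.254 CPM) and the highest HFD + veh library 5 (0.232 CPM). In FPKM the same gene had a median of 61.0, 47.7 and 205 in ND + veh, HFD + veh and HFD + eRapa.

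**Figure D2:**
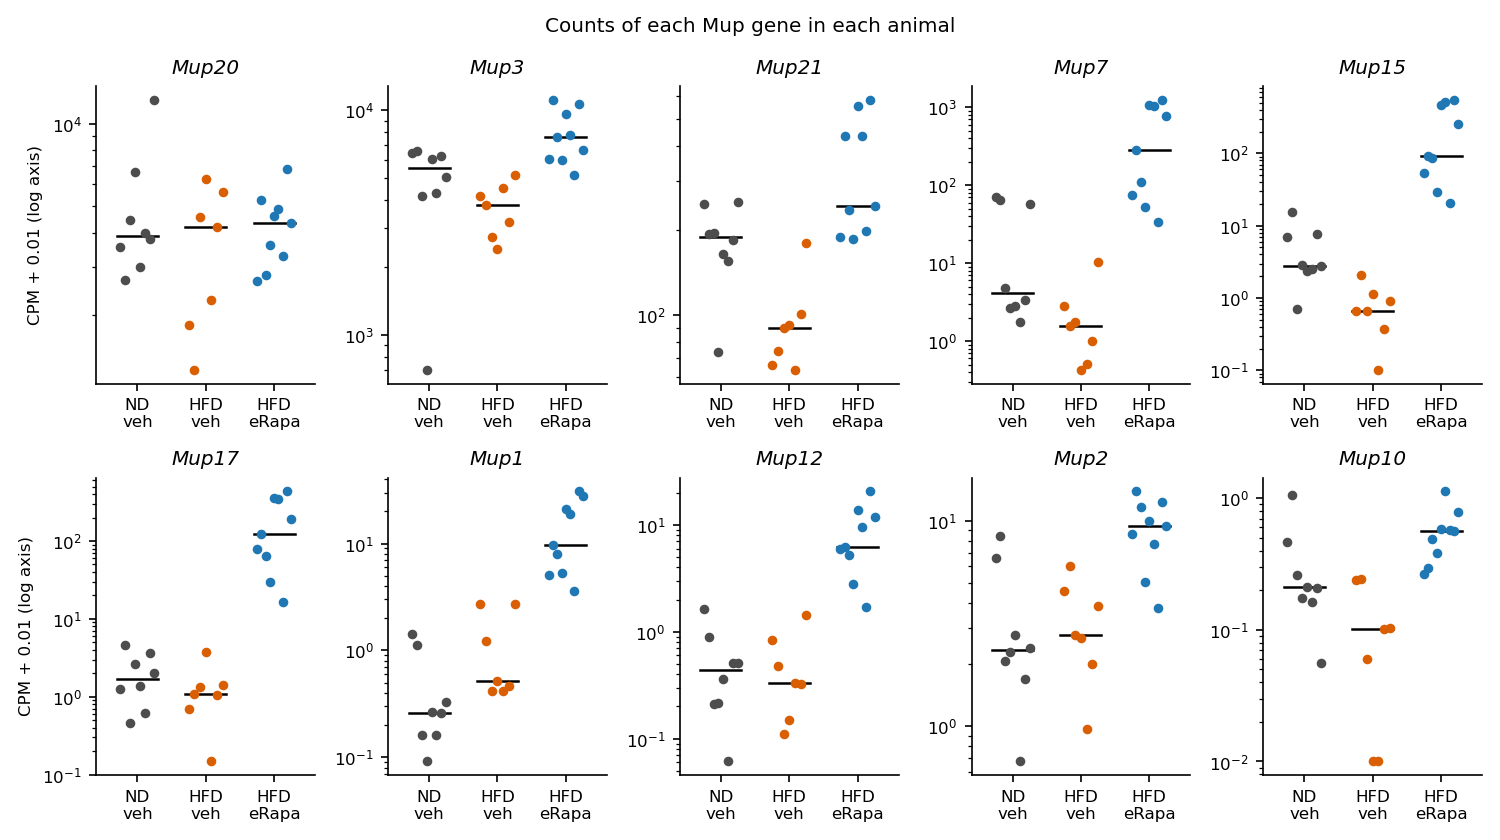
Counts of the 10 Mup genes in each of 24 animals, as CPM + 0.01 on a log axis, with a point per animal and a line at the group median. The HFD + eRapa points of Mup15, Mup17, Mup1 and Mup12 lie above all points of both other groups, whereas those of Mup20 lie within them.

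All 10 members passed the filter on low counts. Mup1, Mup10 and Mup12 passed it only with the help of the HFD + eRapa libraries, because 6, 1 and 6 of the 15 libraries on vehicle reached the limit of 0.475 CPM, and 7 libraries were needed. In HFD + veh against ND + veh, 9 of the 10 log2 fold changes were below 0, and for 0 of the 10 members did the animals of both groups separate. Over all 13847 genes tested they separated for 2.44% (1.21% higher and 1.23% lower in HFD + veh). Shares over all genes were taken from log2 CPM after TMM scaling, and those of Mup genes from plain CPM, so a narrow separation could differ between both. In HFD + eRapa against HFD + veh, all 10 were above 0, and 7 members (Mup1, Mup7, Mup10, Mup12, Mup15, Mup17 and Mup21) separated the groups upward, beside 2.59% of all genes (1.29% higher and 1.29% lower). In HFD + eRapa against ND + veh, 9 of 10 were above 0, and 4 members (Mup1, Mup12, Mup15 and Mup17) separated the groups, beside 3.37% of all genes (2.14% higher and 1.23% lower). Since these contrasts chose the members, and the comparisons share animals, nothing further is read from the counts. The median over the members was -0.57, 3.02 and 2.81 on the log2 scale, beside 0.05, -0.04 and -0.03 over all genes tested.

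**Figure D3:**
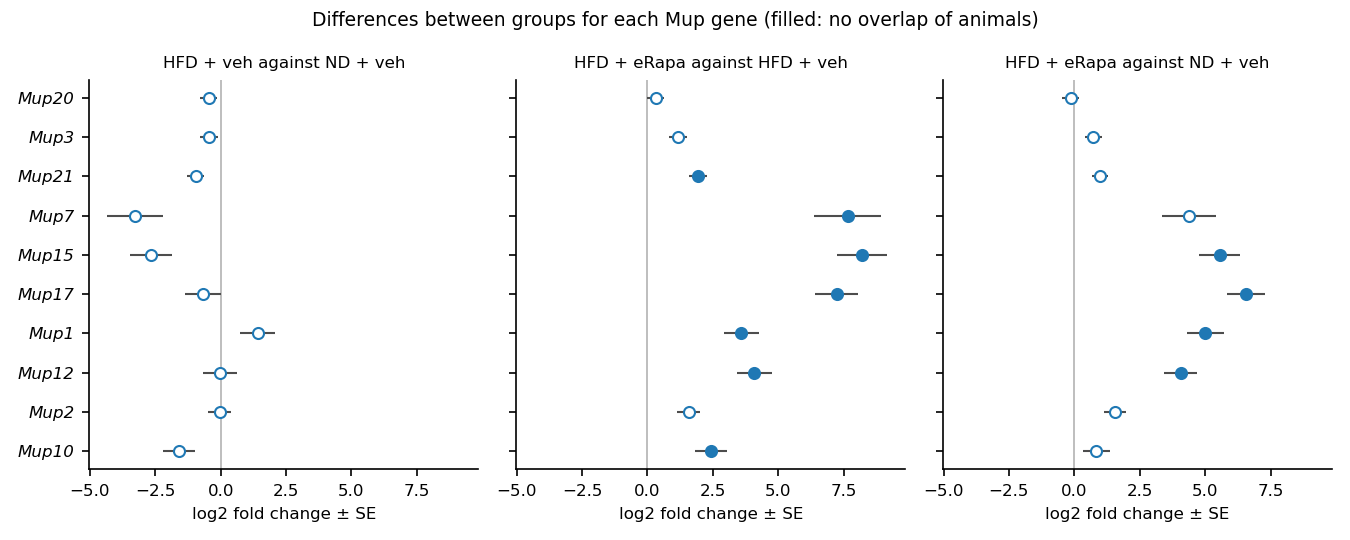
Log2 fold change with its SE for each of the 10 Mup genes in the 3 comparisons, from the edgeR fit to the counts. Filled points mark genes for which the animals of both groups do not overlap, 0 on the left, 7 in the middle and 4 on the right.

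Summed over the 10 members, the family held 7447 to 17630 CPM in ND + veh, 5138 to 10976 CPM in HFD + veh and 8716 to 20358 CPM in HFD + eRapa. The groups overlapped in each comparison, with 5 of 9 HFD + eRapa animals above all HFD + veh animals. On the log2 scale the sum differed by -0.46 (SE 0.24) for HFD + veh against ND + veh, 0.93 (SE 0.24) for HFD + eRapa against HFD + veh and 0.48 (SE 0.23) for HFD + eRapa against ND + veh. With all 22 Mup genes summed it was -0.46 (SE 0.24), 0.96 (SE 0.24) and 0.50 (SE 0.23). The family sum therefore moved far less than the central members did, since Mup20 and Mup3 made up a median of 98.1% of its counts in ND + veh, 98.7% in HFD + veh and 94.5% in HFD + eRapa.

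Summing the 7 central members takes out how reads were divided among these 7, but not reads given to other Mup genes or dropped. The sum ran from 5.88 to 96.5 CPM in ND + veh (median 14.1), from 2.42 to 20.7 CPM in HFD + veh (median 8.65) and from 81.0 to 2314 CPM in HFD + eRapa (median 524). All 9 HFD + eRapa animals were above all HFD + veh animals, and 8 of 9 were above all ND + veh animals. Log2 fold changes of this sum were -1.93 (SE 0.78), 6.67 (SE 0.97) and 4.74 (SE 0.83), and leaving out single libraries gave -2.29 to -1.58, 6.37 to 7.02 and 4.43 to 5.09. In FPKM the sum of the 7 ran from 69.6 to 307 in ND + veh (median 116), from 33.4 to 159 in HFD + veh (median 86.6) and from 306 to 4076 in HFD + eRapa (median 1599.8), and 9 of 9 HFD + eRapa animals lay above all HFD + veh and 8 of 9 above all ND + veh animals. The differences of mean log2(FPKM + 1) were smaller, at -0.86, 4.18 and 3.33, so the size of the difference depended on the table. By counts summed over all 16 central Mup genes, the values were -1.37 (SE 0.68), 5.49 (SE 0.81) and 4.12 (SE 0.71).

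**Figure D4:**
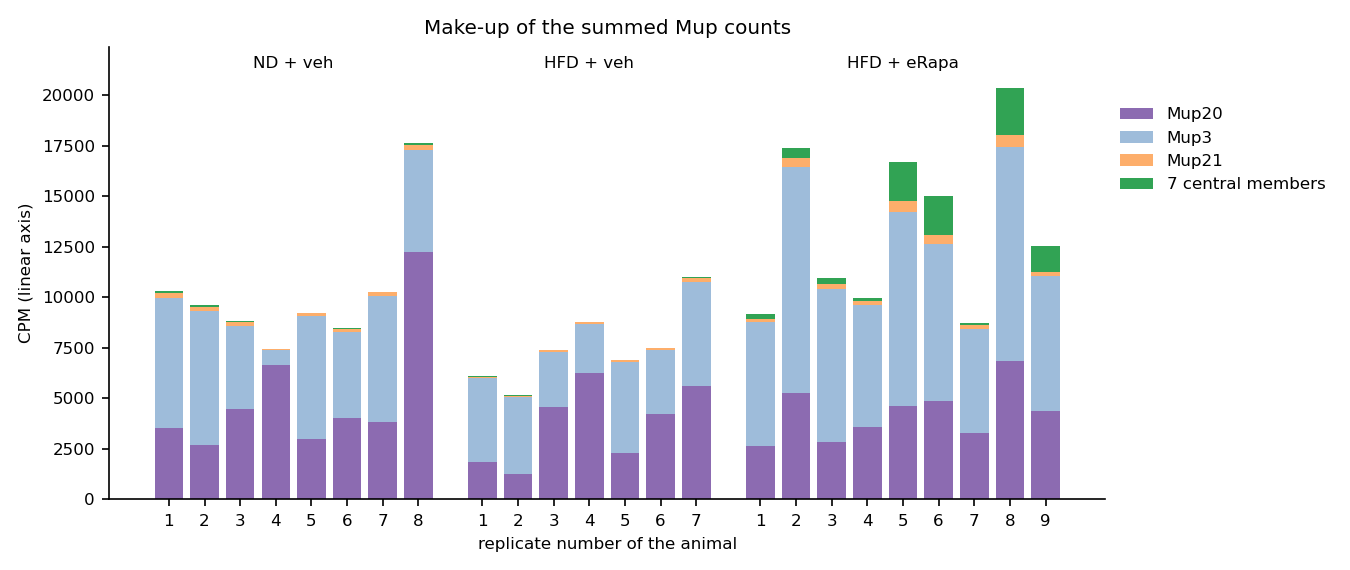
Stacked CPM of Mup20, Mup3, Mup21 and the summed 7 central members in each animal, on a linear axis that starts at 0. The central members are visible mainly in HFD + eRapa replicates 5, 6, 8 and 9, where they hold 1272 to 2314 CPM, and ND + veh replicate 8 stands out for Mup20 at 12256 CPM.

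Animals of the same group differed widely in the central genes. Mup7 spanned a 45.2-fold range in HFD + eRapa, a 38.9-fold range in ND + veh and a 25.9-fold range in HFD + veh, whereas Mup3 spanned 2.78-fold in HFD + eRapa. Replicates 5, 6, 8 and 9 of HFD + eRapa held 781 to 1257 CPM of Mup7, and the other 5 animals of that group held 34.2 to 282 CPM. In ND + veh, replicates 1, 2 and 8 held 57.6 to 71.6 CPM of Mup7, and the other 5 held 1.74 to 4.83 CPM. Over the 24 libraries, Spearman's rho between 2 central members ran from 0.68 to 0.92 with a median of 0.82 (21 pairs), and after group means were removed, Pearson's r ran from 0.30 to 0.92 with a median of 0.69. Between a central and a peripheral member the medians were 0.69 and 0.42. These correlations describe 24 libraries whose genes share depth, cell composition and, among the central members, reads.

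Macrophage markers differed along with the central Mup genes in part of the animals. The HFD + eRapa replicates 5, 6, 8 and 9 had 13.1 to 53.1 CPM of these markers and 1272 to 2314 CPM of the central members, whereas the other 5 animals of the group had 191 to 819 CPM and 81.0 to 524 CPM. In ND + veh, replicates 1 and 2 had 40.4 and 115 CPM of macrophage markers and the highest central sums of the group, 89.9 and 96.5 CPM, and replicate 6 had 646 CPM of the markers and the lowest central sum, 5.88 CPM. Replicate 8 had the highest markers of that group (1096 CPM) together with 65.7 CPM of central members. HFD + veh replicates 1 and 2, with macrophage markers at 141 and 169 CPM, held 12.4 and 12.6 CPM of the central members, below all HFD + eRapa animals. With a score of the markers of other cell types as a covariate, the log2 fold change in HFD + eRapa against HFD + veh was 5.72 for Mup7, 6.13 for Mup15, 6.04 for Mup17 and 1.58 for Mup21, and that of the sum of 10 was 0.92. It was 2.09 for Mup1, 1.27 for Mup10, 2.77 for Mup12, 0.99 for Mup2 and 0.86 for Mup3. The value with the covariate was lower than without it for these 9 members and higher for Mup20 (0.84). In HFD + veh against ND + veh it was -2.25 for Mup7, -1.53 for Mup15, -0.76 for Mup10 and -0.73 for Mup21 with that covariate, and above 0 for Mup1 (2.50), Mup12 (0.94), Mup2 (0.51) and Mup17 (0.0067). The score itself differed by group, with a median of -0.10 in ND + veh, 1.07 in HFD + veh and -0.22 in HFD + eRapa. A fit with it therefore cannot tell the groups and the other cells fully apart. The part of other cells in the differences of the Mup genes was not tested beyond these values.

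**Figure D5:**
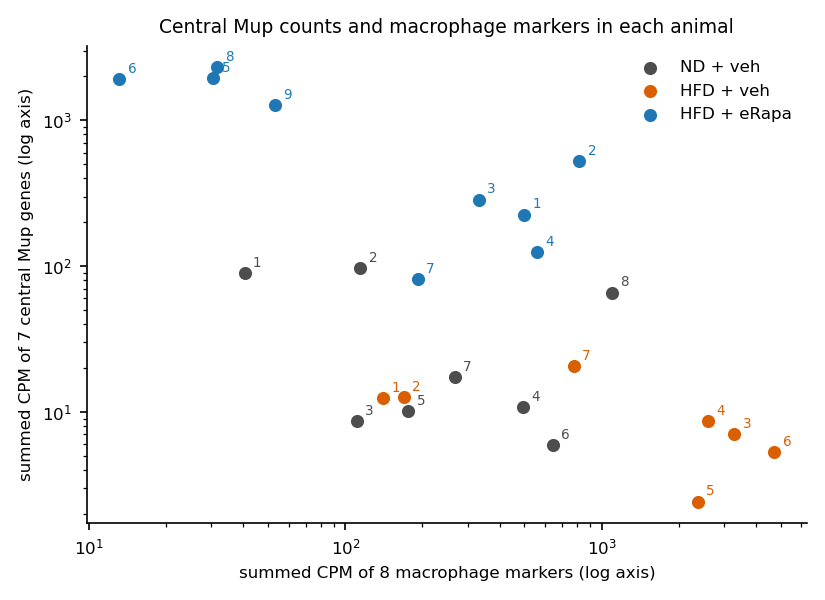
Summed CPM of 8 macrophage markers (horizontal, log axis) and of the 7 central Mup genes (vertical, log axis) in each of 24 animals, with replicate numbers beside the points. HFD + eRapa animals lie at 81.0 CPM or more of the central genes at low and at moderate marker levels, and HFD + veh animals at 20.7 CPM or less.

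The other 12 Mup genes in the tables share sequence and reads with the members, so they are no independent sample. In total, 9 of them passed the filter. Mup6, Mup8, Mup9 and Mup18 passed it only with the help of the HFD + eRapa libraries, so the filter favoured values above 0 there. Of the 9, 8 had a log2 fold change below 0 in HFD + veh against ND + veh, and all 9 were above 0 in both comparisons with HFD + eRapa. The range was -2.65 to 0.11, 1.69 to 7.81 and 0.32 to 5.15. In these comparisons 0, 6 and 4 of them separated the groups, beside 2.44%, 2.59% and 3.37% of all genes tested. Nothing further is read from these counts. Mup11, a central gene, had a median of 1.19 CPM in ND + veh, 0.555 CPM in HFD + veh and 151 CPM in HFD + eRapa. Mup22 was less different, with medians of 15.8, 12.1 and 43.6 CPM. The peripheral gene Mup4 had at most 5 counts in any library and Mup5 at most 1, so few or no reads were counted for either.

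Promoters from 250 bases before to 50 bases after the start were available in the RefSeq table (GRCm38.p6) for 7 of the 10 members and 7 of the other 12 Mup genes. They were searched on both strands for ATCAAT, the core letters of sites of HNF6 (the product of Onecut1), for TATATAA, a form of the TATA box, and for TTCNNNGAA, the core of STAT sites. ATCAAT was found in 7 of 7 members and 7 of 7 other genes, always with 2 matches, beside 7.54% of 32851 promoters of all genes. TATATAA was found in 6 of 7 members and 7 of 7 others, beside 3.24%. TTCNNNGAA was found in 0 of 7 and 0 of 7, beside 8.30%, which says only that these letters are not in this window. The stretch between both ATCAAT matches, of 70 bases, is shown for members with large and with small differences between groups, with the matches in capitals.
Mup15: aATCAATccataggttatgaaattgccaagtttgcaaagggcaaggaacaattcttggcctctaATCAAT
Mup7: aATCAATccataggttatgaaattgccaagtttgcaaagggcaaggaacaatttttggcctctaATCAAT
Mup10: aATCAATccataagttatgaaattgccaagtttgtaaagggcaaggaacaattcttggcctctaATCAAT
Mup3: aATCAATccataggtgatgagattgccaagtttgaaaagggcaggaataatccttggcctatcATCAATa
Mup21: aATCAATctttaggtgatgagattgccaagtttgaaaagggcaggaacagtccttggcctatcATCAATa
They lie on the minus strand of GRCm38.p6 at chr4:61439845-61439914 for Mup15, chr4:60070489-60070558 for Mup7, chr4:60582304-60582373 for Mup10, chr4:62087411-62087480 for Mup3 and chr4:62150929-62150998 for Mup21. The stretch of Mup2 and Mup17 was the same as that of Mup15. Mup3, whose log2 fold change in HFD + eRapa against HFD + veh was 1.16, held both matches just as Mup15 did, whose value was 8.21. All 7 members searched held 2 matches, so their presence could not vary with the size of the difference. No promoter was available for Mup1, Mup12 and Mup20, and a part of these letters in the differences was not tested.

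Genes known to be male-biased in mouse liver, like the Mup family, were counted next. They were called where the adjusted p of edgeR's quasi-likelihood test was under 0.05, and the lists were written with results of these data known. Of 20 such genes, 19 passed the filter. In HFD + veh against ND + veh, 0 were called higher and 9 lower, when 25.9% of the 13847 tested genes were called (16.0% upward and 9.86% downward). In HFD + eRapa against HFD + veh, 14 were called higher and 0 lower, when 32.0% of tested genes were called (10.9% upward and 21.1% downward). In HFD + eRapa against ND + veh, 6 were called higher and 0 lower, when 13.5% of tested genes were called (6.93% upward and 6.54% downward). The list medians were -1.06, 2.43 and 0.39 on the log2 scale.

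Slco1a1, an uptake transporter of organic anions, had a median of 338 CPM in ND + veh, 4.95 CPM in HFD + veh and 481 CPM in HFD + eRapa. It fell by 5.41 on the log2 scale in HFD + veh (edgeR adjusted p = 2.52e-06) and rose by 5.80 with eRapa (edgeR adjusted p = 2.06e-06), and against ND + veh the value was 0.39 (edgeR adjusted p = 0.636). Serpina1e, of the alpha-1-antitrypsin family, had medians of 164, 87.6 and 3230 CPM and was 3.61 higher on the log2 scale in HFD + eRapa than in ND + veh (edgeR adjusted p = 0.00355). Selenbp2, a selenium-binding protein, rose by 3.69 against HFD + veh (edgeR adjusted p = 0.00238) and by 3.74 against ND + veh (edgeR adjusted p = 0.00203). The medians of Slco1a1 and Serpina1e were lowest in HFD + veh, as were those of Mup3, Mup7, Mup10, Mup12, Mup15, Mup17 and Mup21. Those of Mup1, Mup2 and Mup20 were lowest in ND + veh. The median of Slco1a1 in ND + veh was nearer to that in HFD + eRapa than was the case for Serpina1e or Mup7. Cyp4a12b, a fatty acid hydroxylase, fell by 3.34 in HFD + veh (edgeR adjusted p = 0.00442).

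Of 24 female-biased genes, 14 passed the filter. In HFD + veh against ND + veh, 5 were called upward and 1 downward. In HFD + eRapa, 1 was called upward and 8 downward against HFD + veh, and 0 upward and 5 downward against ND + veh. In either direction 42.9%, 64.3% and 35.7% were called, beside 25.9%, 32.0% and 13.5% of all genes tested. The list medians were 0.61, -1.80 and -0.84 on the log2 scale. Cyp2a4, a steroid hydroxylase, differed by -4.64 on the log2 scale between HFD + eRapa and HFD + veh (edgeR adjusted p = 0.00362) and by -4.06 between HFD + eRapa and ND + veh (edgeR adjusted p = 0.0113). The second call was lost without ND + veh replicate 4, when the value of Cyp2a4 was -2.17. Cyp2b9 was higher in HFD + veh at 2.19 (edgeR adjusted p = 0.0371) and lower with eRapa at -3.33 (edgeR adjusted p = 0.00285), and Cyp17a1 was higher in HFD + veh at 1.47 (edgeR adjusted p = 0.0477). The calls of both in HFD + veh against ND + veh were lost without any of several single libraries, among them ND + veh replicate 1 for Cyp2b9 (1.96) and ND + veh replicate 4 for Cyp17a1 (1.27).

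Of 12 genes of GH signalling, all of which passed the filter, 2 were called upward and 4 downward in HFD + veh against ND + veh, 5 upward and 2 downward in HFD + eRapa against HFD + veh, and 1 upward and 0 downward in HFD + eRapa against ND + veh. In either direction 6, 7 and 1 of the 12 were called, beside 25.9%, 32.0% and 13.5% of all genes tested. The third share was below that of all genes, and the other shares were above. Socs2 and Cish, inhibitors that are induced by STAT5, fell by 2.32 (edgeR adjusted p = 9.89e-04) and 1.86 (edgeR adjusted p = 0.0162) in HFD + veh. Socs2 rose by 1.86 with eRapa (edgeR adjusted p = 0.00275), as did Onecut1 by 2.38 (edgeR adjusted p = 0.00416), and Jak2 fell by 0.59 with eRapa (edgeR adjusted p = 0.00815). Igf1, the growth factor made by liver under GH, was higher in HFD + veh by 0.62 (edgeR adjusted p = 0.0142) and in HFD + eRapa by 0.89 (edgeR adjusted p = 6.32e-04), both against ND + veh. Jak2, the kinase of the GH receptor, rose by 0.46 in HFD + veh against ND + veh (edgeR adjusted p = 0.0450). That call of Jak2 was lost without any of several single libraries (0.26 without HFD + veh replicate 6), and that of Igf1 without HFD + veh replicate 6 (0.54). With the marker score of other cell types as a covariate, 2 of these genes were called in HFD + veh against ND + veh and 1 in HFD + eRapa against HFD + veh.

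Among 10 known regulators of Mup genes in liver, all of which passed the filter, 2 were called downward in HFD + veh against ND + veh, 2 upward and 0 downward in HFD + eRapa against HFD + veh and 0 in HFD + eRapa against ND + veh. In either direction 3, 2 and 0 of the 10 were called, beside 25.9%, 32.0% and 13.5% of all genes tested, so these shares were near or below those of all genes, and the values that follow are of single genes. Zhx2, a repressor of several liver genes that is also needed for Mup expression, fell by 0.54 in HFD + veh (edgeR adjusted p = 0.0185) and rose by 0.53 with eRapa (edgeR adjusted p = 0.0125). Cebpb, a factor of liver gene expression, fell by 0.79 in HFD + veh (edgeR adjusted p = 0.0254) and rose by 0.97 with eRapa (edgeR adjusted p = 0.00558). The call of Cebpb in HFD + veh was lost without ND + veh replicate 6 (-0.66). With the marker score as a covariate, 1 regulator was called in the first comparison and 0 in the second.

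Other genes of the lipocalin family were counted last. Of 12 on the list, 10 passed the filter, and 5 were called upward and 3 downward in HFD + veh against ND + veh, 1 upward and 1 downward in HFD + eRapa against HFD + veh, and 3 upward and 2 downward in HFD + eRapa against ND + veh. In either direction 8, 2 and 5 of the 10 were called, beside 25.9%, 32.0% and 13.5% of all genes tested. The second share was below that of all genes, and the other shares were above. Lcn2, an acute-phase lipocalin, was 3.15 higher in HFD + veh (edgeR adjusted p = 6.49e-04) and 2.79 higher in HFD + eRapa (edgeR adjusted p = 9.76e-04) than in ND + veh. Orm2, an acute-phase glycoprotein, was higher by 1.74 (edgeR adjusted p = 0.0211) and 2.33 (edgeR adjusted p = 0.00359) in the same comparisons, of which the first call of Orm2 was lost without ND + veh replicate 1 (1.57) or HFD + veh replicate 6 (1.61). Apom, a carrier of sphingosine phosphate, fell by 1.14 in HFD + veh (edgeR adjusted p = 8.37e-04) and by 0.69 in HFD + eRapa (edgeR adjusted p = 0.0182). Rbp4, the retinol carrier of plasma, fell by 0.54 in HFD + veh (edgeR adjusted p = 0.0224) and rose by 0.53 with eRapa (edgeR adjusted p = 0.0167).

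Genes whose levels were most like those of the family were ranked among 7967 genes with a mean log2 CPM of at least 3. Against the sum of the 10 members over 24 libraries, the highest Spearman's rho was that of Ugt2b1 (0.89), followed by Glyat (0.89), Serpina3k (0.86), Serpina1e (0.86), Adh4 (0.85), Slco1a1 (0.84), Keg1 (0.83), Mbl1 (0.83), Mrps10 (0.83) and Utp3 (0.82). After group means were removed, the highest Pearson's r was that of Mrps10 (0.83), and then Serpina1e (0.82), C4bp (0.82), Tpmt (0.81) and Cfhr2 (0.80). Against the sum of the 7 central members, a measure added after the data were seen, the highest rho was that of Serpina1e (0.93), with Ces3a (0.92) and Fam136a (0.91) next. After group means were removed, the highest Pearson's r with this sum was that of Cyp7b1 (0.86), with Slc22a30 (0.85) and Serpina1e (0.85) next. Within HFD + eRapa alone, Spearman's rho with the central sum was 1.00 for Selenbp2, 0.93 for Nudt7 and 0.87 for Serpina1e over 9 animals. These are genes of the male-biased list, of which Elovl3 had 0.37, and Serpine2, outside that list, had 0.98. The rho of Selenbp2 was 0.24 in ND + veh and 0.71 in HFD + veh, while those of Nudt7 and Serpina1e were 0.79 to 0.89 in both groups. All of these values come from the same 24 libraries, which share depth and hepatocyte content.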

How the data were processed

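RNA of isolated hepatocytes was sequenced from 24 mice, and with groups and replicate numbers as the labels give them. The authors aligned reads with STAR to mm10 with the Gencode vM23 annotation. The deposited counts are raw reads per gene from HTSeq 0.11.2, and the authors used Cufflinks for the deposited FPKM values. Whether counting used strand, and how reads matching several genes were treated, is not given in the sources used here. Counts per library ran from 17.7 to 25.9 M. Libraries of 1 group differed by more than sampling noise (lowest chi-square per degree of freedom 11.3), and each counted as 1 replicate.

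The 10 members, the gene lists and the alternatives were chosen with earlier results of these data known. All members were named. From each list and contrast, the 2 called genes of mean log2 CPM 3 or more with the highest and the 2 with the lowest log2 fold change were named. The 10 genes most correlated with the summed members were named as well. A gene of the regulator list that this rule names is not reported here.

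The counts of all genes were fitted with edgeR 4.0.16 in R 4.3.3 (filterByExpr, TMM, estimateDisp, robust glmQLFit, glmQLFTest), in a single fit with 24 libraries and 3 groups. Of 55421 genes, 13847 were tested. Benjamini-Hochberg adjustment of p ran over all of them, and genes under 0.05 are termed called. For the sums, the members' rows were replaced by their total in the same fit. SEs are the absolute log2 fold change over the square root of F. Log2 CPM used a prior count of 2. The FPKM alternatives were differences of mean log2(FPKM + 1) or log2(FPKM + 0.1), which understate changes of low genes. Scripts were tested on simulated data with known changes.

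Identifiers of all 22 Mup genes were found in Gencode M21 (GRCm38, the assembly of mm10). Coding sequences were taken from the transcript whose coding length was nearest to the family median and were aligned with MAFFT. Alternatives were DESeq2 1.42.0, its size factors, no filter, the replicate number as a block, fits of only the groups compared, a marker score of other cell types as a covariate, Mup rows left out of library totals, FPKM, other sums, and the removal of single libraries. Replicate numbers belong to different animals. Intervals and limits for counts of 0 cover counting error only.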

Additional observations from a re-analysis of the deposited data

Results flagged for a closer look

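Of 36 sets of log2 CPM values (members and summed members within a group), 4 had a library whose gap to the nearest other one was large for the range of its group. Chance alone gives about 1.8 such cases.

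In ND + veh replicate 4, Mup3 was at 9.06 log2 CPM, when the other 7 animals were at 11.88 to 12.73. In the same library Mup21 was at 5.82, when the others were at 7.32 to 7.99. Its Mup20, at 6663 CPM, was not low. Without this library the log2 fold change in HFD + veh against ND + veh was -0.63 for Mup3 and -1.13 for Mup21. This library had the lowest hepatocyte markers of its group, 94557 CPM when the other 7 had 142390.0 to 175948 CPM, and, at 26.3 CPM, the highest cholangiocyte markers, and their part in the result was not tested.

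In ND + veh replicate 8, Mup20 was at 13.60 log2 CPM, when the others were at 11.39 to 12.31. Without this library the log2 fold change of Mup20 in HFD + veh against ND + veh was -0.09 in place of -0.46. In HFD + veh replicate 7, Mup21 was at 7.63 log2 CPM, when the others were at 5.98 to 6.45, and its Mup7 (10.3 CPM) was also the highest of its group. Without that library the log2 fold change of Mup21 in HFD + veh against ND + veh was -1.26.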

How the results depend on the processing

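The members' log2 fold changes were also taken under the alternatives and with single libraries left out. Of these, 976 differed from the main value by less than the pooled standard deviation (SD) between animals. A further 17 differed by more, and in 2 a value of at least 2 SE turned sign. This spread is wide where animals differ, as for Mup7, with an SD of 2.36 log2 CPM in ND + veh. Many settings left out a library of the group not compared, which can hardly move the value, so the counts do not measure stability. Smaller values near 0 (Mup2, Mup12, Mup17 and Mup20) could also change sign and were counted as within the spread. Both reversals were of Mup1 in HFD + veh against ND + veh, which was 1.41 from counts but -0.86 from log2(FPKM + 1) and -1.05 from log2(FPKM + 0.1). The summed members moved beyond that spread only with what was summed. In HFD + veh against ND + veh, HFD + eRapa against HFD + veh and HFD + eRapa against ND + veh, the 7 central members gave -1.93, 6.67 and 4.74 and all 16 central genes -1.37, 5.49 and 4.12. In FPKM, an alternative chosen after the data were seen, the 7 gave -0.86, 4.18 and 3.33, of which -0.86 lay within the spread. The median over members was 3.02 in the second and 2.81 in the third comparison.

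Of 3584 genes called in HFD + veh against ND + veh, the number was 2333 in a fit of only these groups, 1386 with the marker score as a covariate and 2300 without ND + veh replicate 4 and HFD + veh replicate 6 together, an alternative chosen after the data were seen. Leaving out single libraries gave 2106 (without HFD + veh replicate 6) to 4479. In HFD + eRapa against HFD + veh, 4432 calls became 832 with the marker score. The score had its highest group median in HFD + veh, so fewer calls with it do not measure the part of other cells.

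In HFD + veh against ND + veh, called female-biased genes went from 6 to 3 without the filter (3 to 7 with single libraries left out, the lowest without HFD + veh replicates 3, 4 or 6). Called GH signalling genes went from 6 to 2 with the marker score and to 1 without both libraries (2 to 6 with single libraries left out, under 4 without HFD + veh replicates 3, 4 or 6). Called regulators went from 3 to 1 in a fit of only these groups, with the marker score and without both libraries (1 to 4 with single libraries left out, the lowest without ND + veh replicate 6), and lipocalins from 8 to 5 without the filter and with the marker score. With the marker score in HFD + eRapa against HFD + veh, called genes went from 14 to 8 (male-biased), 9 to 5 (female-biased), 7 to 1 (GH signalling) and 2 to 0 (regulators). In HFD + eRapa against ND + veh, called GH signalling genes went from 1 to 2 with DESeq2 and without both libraries (1 to 2 with single libraries left out, 2 without ND + veh replicates 4 or 5 or HFD + eRapa replicate 7). The cause of these changes was not tested.

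Replicate numbers are shared by different animals. After group means were removed, the median correlation of same-numbered libraries was 0.38, -0.33 and -0.32 in the 3 comparisons. The values ran from -0.36 to 0.73, from -0.66 to 0.49 and from -0.52 to 0.37. In these comparisons 2 of 7, 0 of 7 and 0 of 8 libraries correlated best with their own number. So few libraries cannot show whether same-numbered libraries were handled together, which was not tested. In a fit with a block for replicate number, genes called were 2461, 2532 and 1575, and the summed members differed by -0.29, 0.81 and 0.53. In the block fit, called GH signalling genes were 3 in the first and 2 in the third comparison, regulators 1 in the second, and male-biased and female-biased genes 3 and 2 in the third.

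Mup10, Mup1 and Mup12 had few counts on vehicle, and whether depth or read assignment set this was not tested. Single central members cannot be told apart where reads lie in shared sequence.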

Other observations

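In the FPKM table a pseudogene of the family, Mup-ps19, was listed above every member but Mup20 and Mup3 by group median. Its median FPKM was 2836 in ND + veh, 2107 in HFD + veh and 2444 in HFD + eRapa, and its counts were at most 13, 11 and 15 in any library. Mup13, a central gene, had a median FPKM of 20.5, 14.2 and 127 with median counts of 0.5, 0 and 2. Mup5 had a median FPKM of 2.23, 3.95 and 3.05 and at most 1 count. Which table is nearer to the RNA of these genes was not tested.

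The ratio of Mup20 to Mup3 counts ran from 0.404 to 9.53 in ND + veh, from 0.332 to 2.59 in HFD + veh and from 0.369 to 0.650 in HFD + eRapa. The groups overlapped, and the ratio spread least in HFD + eRapa, in which Mup20 was below Mup3 in all 9 animals. Hsd3b5, a male-biased steroid dehydrogenase, was named after its values were seen. It had 2.28 to 128 CPM in ND + veh, 0 to 0.278 CPM in HFD + veh and 6.03 to 277 CPM in HFD + eRapa, so that the HFD + veh animals were separate from both other groups.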
